A study of Mus musculus with 15 samples.

Results

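The collagen gene family was examined in bone from under the joint surface of the mouse tibia. Its members were the rows of the deposited table whose Ensembl ID carried a mouse symbol of the form Col, number, a, number, and 44 of 55335 gene IDs met that rule. The study asked how altered joint loading, and loss of Pvalb in osteocytes under that loading, changed expression in subchondral bone, the bone beneath the articular cartilage. All animals were male mice, operated at 8 weeks of age, with bone collected 8 weeks later, and each of the 3 groups held 5 libraries labelled as biological replicates. The sham wild-type group was C57BL/6J with the joint capsule opened and the ligament intact. The DMM wild-type group was of the same strain and had DMM, surgical destabilization of the medial meniscus: cutting the ligament that ties this meniscus to the tibia brings on osteoarthritis. The DMM Pvalb cKO group had the same operation and carried Dmp1-Cre with Pvalb fl/fl, a conditional knockout (cKO) whose Cre is driven by a promoter active in osteocytes. No sham-operated knockout was analysed here, so the genotypes were compared after DMM only.

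Collagens are the main structural proteins of connective tissue, built from alpha chains wound into a helix. Fibrillar collagens form the tension-bearing fibrils, with collagen I in bone, collagen II in cartilage and collagen III in soft and repairing tissue. Basement membrane collagens form sheets under endothelium and around other cells, FACIT collagens attach to fibril surfaces, and beaded-filament collagen VI surrounds cells. Short-chain collagens form networks, among them collagen X of hypertrophic cartilage, while multiplexins and transmembrane collagens sit at basement membranes and cell surfaces.

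Values were FPKM (fragments per kilobase, scaled to library size), so that levels can be set beside each other between genes. Library sums ran from 375453 to 468423 FPKM and 12592 to 13510 IDs per library reached 1 FPKM. Read counts were not part of the table; from the spacing of low values, relative depth was 0.634 to 1.05 times that of sham replicate 1, and absolute depth was unknown. The targeted gene Pvalb, which skeletal muscle also expresses strongly, was 15.8 to 490 FPKM in sham, 33.0 to 375 FPKM in DMM wild-type and 23.7 to 166 FPKM in knockout libraries, so its level did not separate the groups. All 10 osteoblast and osteocyte markers were past the filter described next. DMM wild-type replicate 3 and knockout replicates 1 and 4 stood apart on the first principal component of all genes, which held 32.2% of the variance. Family counts at an unadjusted p under 0.05, family medians and genes whose direction reversed are also given without these 3 libraries. Ratios between chains were not examined without the 3 together. In bulk tissue, fewer cells of a type and less RNA per cell cannot be told apart.

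Of the 44 members, 29 reached 1 FPKM in at least 5 of 15 libraries and entered the test. They were 11 of 11 fibrillar, 2 of 6 basement membrane, 7 of 9 FACIT, 3 of 6 beaded-filament, 3 of 3 short-chain, 2 of 2 multiplexin and 1 of 4 transmembrane genes. None of the 3 anchoring-fibril and other genes passed. The 15 that did not pass were Col4a3, Col4a4, Col4a5, Col4a6, Col19a1, Col20a1, Col6a4, Col6a5, Col6a6, Col17a1, Col23a1, Col25a1, Col7a1, Col26a1 and Col28a1. The highest of them was Col20a1, at no more than 0.801 FPKM in any library. Col7a1, which encodes the anchoring fibril chain of skin, reached 0.566 FPKM.

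Summed over all members, collagen FPKM was 1790 ± 482 (SD, n = 5) in sham, 2368 ± 536 in DMM wild-type and 1897 ± 696 in knockout bones. The 3 ranges overlapped, at 1192 to 2295, 1842 to 2987 and 1078 to 2879 FPKM. The fibrillar class held 89.0 ± 4.00%, 84.7 ± 1.57% and 85.4 ± 2.63% of collagen FPKM in those groups. The 2 collagen I chains alone held 74.4 ± 7.39%, 67.2 ± 3.25% and 67.0 ± 6.13%. The beaded-filament share was 2.53 ± 0.751% in sham, 5.22 ± 1.38% in DMM wild-type and 5.30 ± 1.66% in knockout bones. The short-chain share was 2.53 ± 1.29%, 4.79 ± 0.854% and 3.89 ± 0.920%. In sham bone the members with the highest mean were Col1a1 at 868 FPKM, Col1a2 at 446, Col2a1 at 106, Col11a2 at 77.7 and Col10a1 at 44.7, and Col3a1 stood 11th at 16.6 FPKM. The sham SD of Col2a1 (72.5 FPKM) exceeded the gap between its mean and that of Col11a2, and the order of this pair was not tested.

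After DMM in wild-type mice, the non-collagen-I fibrillar genes Col3a1, Col5a1, Col5a2 and Col5a3, the collagen VI chains and the multiplexins were higher than after sham surgery, while Col1a1 differed by less than its spread. No collagen gene passed the test across all genes, and none of the 13653 genes tested did. The test was limma with a variance trend on log2(FPKM + 1), a scale that understates differences of low genes, and a gene was called when its p, adjusted by Benjamini and Hochberg, was under 0.05. The share of genes called was 0% in each direction and the smallest adjusted p of a member was 0.216. At an unadjusted p under 0.05, 15 of 29 members were higher, against 5.5% of all genes, and 0 were lower, against 1.43%. In 9 members all DMM wild-type libraries lay above all sham libraries (Col6a1, Col18a1, Col5a3, Col6a2, Col5a2, Col3a1, Col5a1, Col15a1 and Col16a1), against 1.48% of all genes, and none lay wholly below, against 0.308%. The log2 difference was above 0 in 25 of 29 members, against 50.4% of all genes, and the median was 0.54 over the members and 0.0019 over all genes. Without the 3 libraries that stood apart, 16 members were higher at an unadjusted p under 0.05, against 6.99% of all genes, and the median was 0.61. The 4 members below 0 were Col11a2, Col9a1, Col9a2 and Col9a3.

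**Figure D1:**
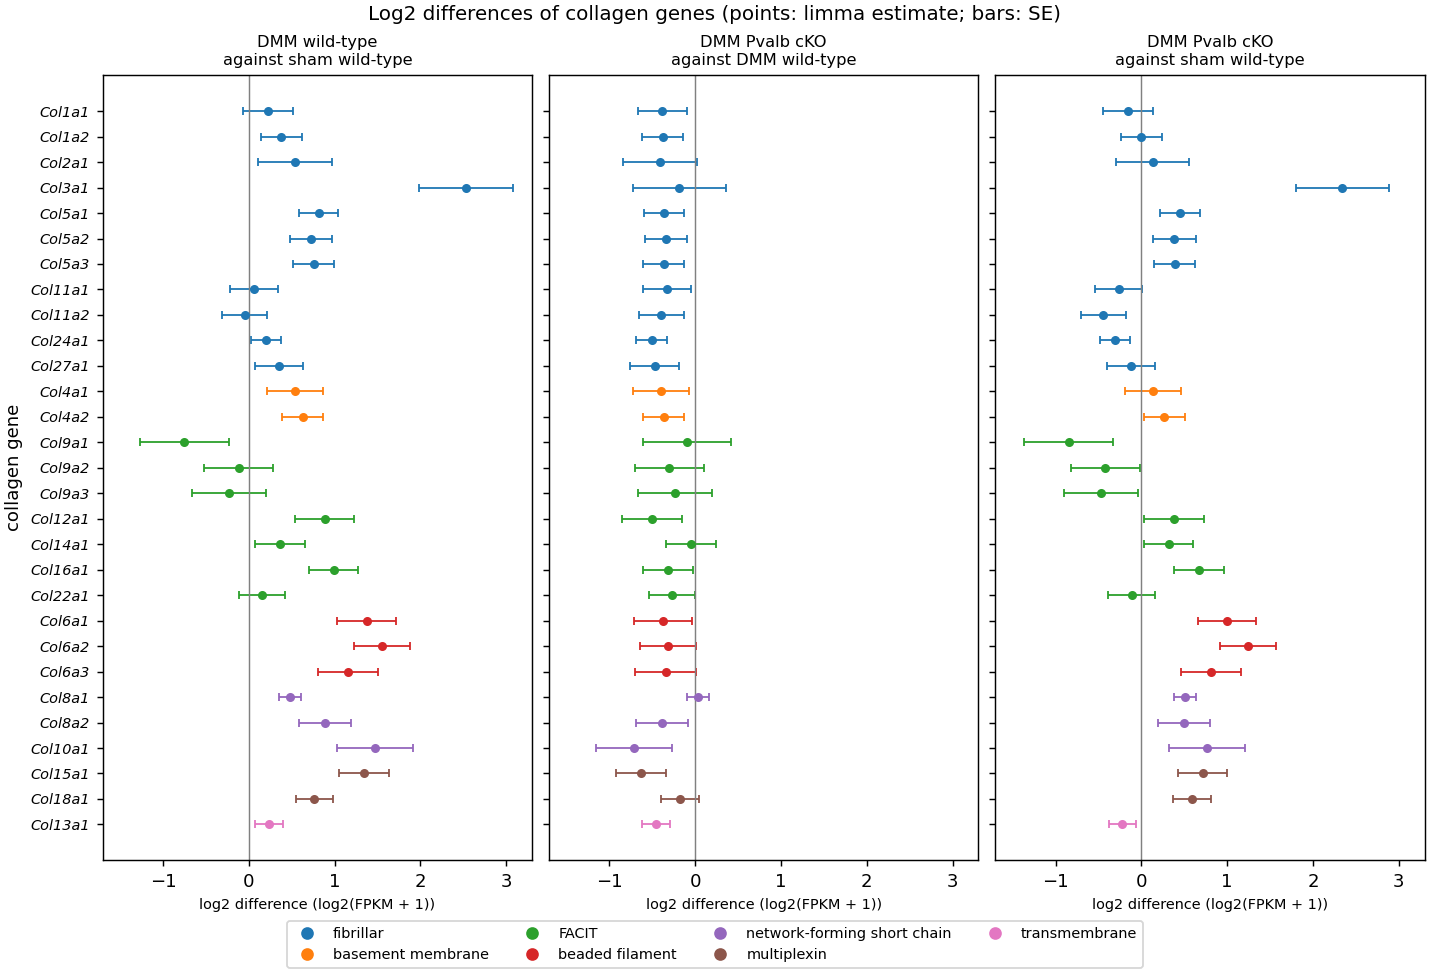
Log2 difference of each of the 29 collagen genes tested, on the log2(FPKM + 1) scale, in the 3 comparisons between groups of 5 libraries. Points are limma estimates and bars are standard errors, coloured by collagen class. In DMM wild-type against sham, 25 points lie right of 0 and Col3a1 lies farthest out at 2.53. In knockout against wild-type after DMM, 28 lie left of 0.

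Among the fibrillar genes, Col3a1 (ENSMUSG00000026043), the single chain of collagen III, had the largest difference. It was 14.6, 21.8, 13.9, 5.11 and 27.8 FPKM in sham replicates 1 to 5, whereas the DMM wild-type libraries, in the same order, had 141, 120, 96.6, 38.7 and 88.4 FPKM. Every DMM wild-type library was above every sham library, with replicate 4 the lowest of its group. The mean went from 16.6 ± 8.61 to 97.0 ± 38.6 FPKM, and the log2 difference was 2.53 (SE 0.54; limma adjusted p = 0.216). Knockout replicates 1 to 5 had 62.8, 22.5, 231, 103 and 85.9 FPKM. Knockout replicate 3 was the highest of all libraries and replicate 2 lay within the sham range. Col5a1, a chain of the collagen V that initiates fibrils of collagen I, was 18.7, 18.5, 13.6, 11.4 and 20.3 FPKM in sham and 38.6, 33.0, 26.0, 25.6 and 24.5 FPKM in DMM wild-type bones. Those groups did not overlap, and the log2 difference was 0.81 (SE 0.23; limma adjusted p = 0.283). The knockout libraries, at 16.3, 17.7, 41.8, 19.2 and 23.9 FPKM, overlapped both. The other collagen V chains, Col5a2 and Col5a3, had log2 differences of 0.72 (SE 0.25) and 0.76 (SE 0.24).

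Col1a1 (ENSMUSG00000001506), the main chain of bone collagen, was 966, 1143, 713, 631 and 887 FPKM in sham and 1361, 867, 810, 1343 and 741 FPKM in DMM wild-type bones. Only DMM wild-type replicates 1 and 4 exceeded the sham range. The log2 difference was 0.22 (SE 0.29; limma adjusted p = 0.918; 95% interval -0.40 to 0.84). Knockout values were 608, 973, 1178, 382 and 957 FPKM, with replicate 4 the lowest of all libraries. Col1a2, its partner chain, had a log2 difference of 0.38 (SE 0.24) between DMM wild-type and sham. Col2a1, the chain of cartilage collagen II, was 41.1 to 221 FPKM in sham (median 107), 95.9 to 206 in DMM wild-type (median 122) and 50.8 to 184 in knockout libraries (median 99.3). Its log2 difference between DMM wild-type and sham was 0.54 (SE 0.43), and the groups overlapped. Col11a1 and Col11a2, the collagen XI chains that assemble with collagen II, had log2 differences of 0.060 and -0.049, each under its SE. Col24a1 and Col27a1, minor fibrillar chains, had 0.20 and 0.35.

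**Figure D2:**
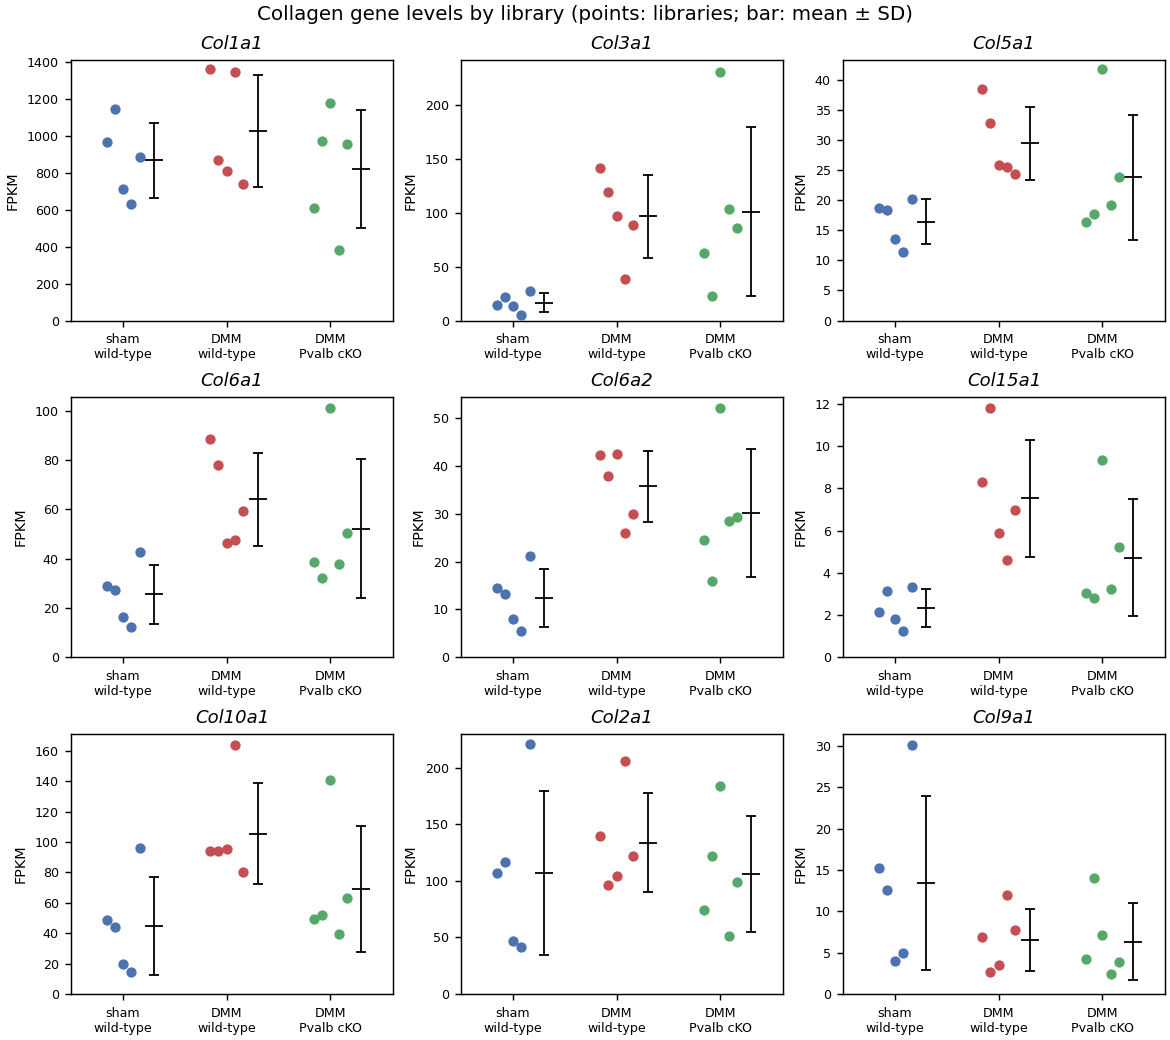
FPKM of 9 collagen genes in each library (points, linear axis from 0) in the 3 groups of 5, with the group mean and SD beside them. DMM wild-type libraries lie above all sham libraries for Col3a1, Col5a1, Col6a1, Col6a2 and Col15a1, whereas the groups overlap for Col1a1, Col2a1, Col9a1 and Col10a1.

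The promoter windows of Col3a1 and Col1a2 are shown to set the fibrillar gene with the largest difference beside a main bone collagen gene with a small one: a 5.83-fold ratio of DMM wild-type to sham means for Col3a1 and 1.30-fold for Col1a2. Each window runs from 250 bases before to 50 bases after the annotated start (RefSeq, build GRCm38.p6), at chr1:45311288-45311587 on the plus strand for Col3a1 and chr6:4505368-4505667 on the plus strand for Col1a2. Capitals mark CCAAT or TATAAA on either strand.
Col3a1: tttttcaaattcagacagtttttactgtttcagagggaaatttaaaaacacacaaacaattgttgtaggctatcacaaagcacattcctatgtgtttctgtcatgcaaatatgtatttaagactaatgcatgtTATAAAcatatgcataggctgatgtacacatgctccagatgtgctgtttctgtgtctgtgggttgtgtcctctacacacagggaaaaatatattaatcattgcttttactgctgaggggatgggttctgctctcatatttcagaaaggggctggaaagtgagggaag
Col1a2: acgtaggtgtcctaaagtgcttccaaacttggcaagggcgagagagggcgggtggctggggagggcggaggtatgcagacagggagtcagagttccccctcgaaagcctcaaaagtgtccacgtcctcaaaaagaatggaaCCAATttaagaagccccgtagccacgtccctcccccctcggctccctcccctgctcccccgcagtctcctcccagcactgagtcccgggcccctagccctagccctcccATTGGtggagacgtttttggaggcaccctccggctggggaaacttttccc
The Col3a1 window held TATAAA at position -117 from the start, and the Col1a2 window held CCAAT at -109 and its reverse complement ATTGG at 1. Windows were found for 35 of the 44 members (38 windows), and Col1a1 had none. CCAAT or ATTGG was in 34.2% of the collagen windows and 37.4% of all 32851 windows, and TATAAA or TTTATA in 13.2% and 13.6%. GGGCGG or CCGCCC, the GC box, was in 23 of 38 collagen windows (60.5%) and 35.7% of all windows, and CAGAC or GTCTG in 52.6% and 49.6%. None of these motifs contains another as spelled, though some can share end bases, and a match describes letters only.

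The basement membrane genes that passed the filter were Col4a1 and Col4a2, the chains of the ubiquitous collagen IV network, and Col4a3 to Col4a6, used mainly in kidney, lung and eye, stayed at or below 0.509 FPKM. Col4a1 and Col4a2 are transcribed away from each other, and their annotated starts lie 21 bases apart, so that their windows share 78 bases. The windows are printed because they overlap. They lie at chr8:11312777-11313076 on the minus strand for Col4a1 and chr8:11312555-11312854 on the plus strand for Col4a2 (RefSeq, build GRCm38.p6). Capitals mark the shared bases, read from opposite strands.
Col4a1: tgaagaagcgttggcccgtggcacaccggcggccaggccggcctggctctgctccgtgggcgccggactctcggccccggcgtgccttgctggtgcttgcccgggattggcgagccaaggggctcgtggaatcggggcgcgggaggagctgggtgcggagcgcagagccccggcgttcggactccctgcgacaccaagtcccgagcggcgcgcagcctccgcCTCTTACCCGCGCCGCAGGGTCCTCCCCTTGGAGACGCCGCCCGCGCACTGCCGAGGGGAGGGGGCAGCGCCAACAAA
Col4a2: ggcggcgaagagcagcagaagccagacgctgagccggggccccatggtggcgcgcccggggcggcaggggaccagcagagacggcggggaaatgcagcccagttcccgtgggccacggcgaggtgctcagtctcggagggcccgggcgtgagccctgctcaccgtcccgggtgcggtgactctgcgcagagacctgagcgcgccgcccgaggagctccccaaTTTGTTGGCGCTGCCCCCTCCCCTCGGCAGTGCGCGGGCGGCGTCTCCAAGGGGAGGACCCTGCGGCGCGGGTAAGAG
Col4a2 was 10.6, 11.4, 7.15, 5.87 and 14.0 FPKM in sham and 18.3, 16.2, 11.9, 15.96 and 13.7 FPKM in DMM wild-type bones. The groups overlapped between 11.9 and 14.0 FPKM. The log2 difference was 0.63 (SE 0.24; limma adjusted p = 0.506). Col4a1 was 10.7, 14.5, 8.43, 5.40 and 17.1 FPKM in sham and 22.4, 16.4, 12.9, 18.0 and 10.9 FPKM in DMM wild-type bones, a log2 difference of 0.54 (SE 0.33; limma adjusted p = 0.903). In the knockout, Col4a1 was 11.3, 7.11, 22.0, 7.05 and 16.3 FPKM and Col4a2 was 10.4, 9.32, 19.3, 7.53 and 13.8 FPKM. Replicate 3 was the highest and replicates 2 and 4 the lowest of that group for both genes. The ratio of Col4a1 to Col4a2 within a library stayed between 0.763 and 1.27 in all 15 libraries. This was not particular to the pair: Col1a1 to Col1a2 was 1.40 to 2.07, Col5a1 to Col5a2 0.633 to 0.906 and Col6a1 to Col6a2 1.09 to 2.25. The gene models of this pair overlap, and the strand setting of the counting was not given, so that reads near their start could be assigned to either.

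Collagen VI, a microfibril that surrounds muscle fibres, chondrocytes and fibroblasts, had higher levels of all 3 of its expressed chains after DMM. Col6a1 (ENSMUSG00000001119) was 28.9, 27.4, 16.4, 12.2 and 42.5 FPKM in sham and 88.6, 78.1, 46.2, 47.6 and 59.4 FPKM in DMM wild-type bones. The groups did not overlap, and the log2 difference was 1.37 (SE 0.34; limma adjusted p = 0.244). Knockout libraries had 38.4, 32.3, 101, 38.0 and 50.4 FPKM, with replicate 3 far above the other members of its group. Col6a2 (ENSMUSG00000020241) was 14.6, 13.2, 8.01, 5.41 and 21.1 FPKM in sham and 42.2, 38.0, 42.5, 25.9 and 30.0 FPKM in DMM wild-type bones. All 5 DMM wild-type values exceeded the highest sham value, with a log2 difference of 1.55 (SE 0.32; limma adjusted p = 0.216). In the knockout Col6a2 was 24.5, 16.01, 52.1, 28.4 and 29.4 FPKM, and only replicate 2 fell inside the sham range. Col6a3, the chain with the longest globular part, had means of 9.01 ± 4.88 and 20.02 ± 6.86 FPKM in sham and DMM wild-type and a log2 difference of 1.16 (SE 0.35). Col6a1 and Col6a2 are adjacent genes, whereas Col6a4, Col6a5 and Col6a6 reached no more than 0.167 FPKM.

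The FACIT genes divided. Col16a1 and Col12a1, which bind fibrils of soft tissue and bone, were higher after DMM, whereas the collagen IX genes of cartilage were the members with values below 0. Col16a1 was 3.67, 5.99, 4.03, 2.06 and 6.99 FPKM in sham and 10.3, 9.75, 11.04, 8.02 and 8.32 FPKM in DMM wild-type bones. It did not overlap between those groups and had a log2 difference of 0.99 (SE 0.29; limma adjusted p = 0.304). Knockout values were 4.58, 4.46, 15.1, 7.59 and 8.77 FPKM, so that 2 libraries lay within the sham range. Col12a1 was 4.61, 6.40, 3.29, 2.50 and 7.54 FPKM in sham and 13.2, 13.1, 5.23, 8.64 and 8.34 FPKM in DMM wild-type bones. DMM wild-type replicate 3 lay inside the sham range, and the log2 difference was 0.88 (SE 0.35; limma adjusted p = 0.541). In the knockout Col12a1 was 3.86, 4.71, 15.5, 4.04 and 7.57 FPKM, with replicate 3 apart from the rest.

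Col9a2, the collagen IX chain with the highest level, was 30.3, 28.8, 14.0, 13.8 and 65.2 FPKM in sham and 26.4, 11.7, 21.8, 37.0 and 28.9 FPKM in DMM wild-type bones. Sham replicate 5 was more than any other library, the groups overlapped, and the log2 difference was -0.12 (SE 0.40; limma adjusted p = 0.959). Knockout values were 16.8, 36.1, 20.6, 13.7 and 14.2 FPKM. Col9a1 had means of 13.4 ± 10.5, 6.57 ± 3.74 and 6.34 ± 4.62 FPKM in sham, DMM wild-type and knockout bones. Its log2 difference between DMM wild-type and sham was -0.75 (SE 0.52), and that of Col9a3 was -0.23 (SE 0.43). Col14a1 and Col22a1, a FACIT of soft tissue and one of tissue junctions such as that of muscle with tendon, had log2 differences of 0.36 and 0.15.

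Short-chain, multiplexin and transmembrane genes were expressed at lower levels, apart from Col10a1. Col10a1 (ENSMUSG00000039462), the chain of hypertrophic cartilage, was 48.9, 44.2, 19.9, 14.4 and 96.2 FPKM in sham and 94.3, 94.2, 95.4, 164 and 80.5 FPKM in DMM wild-type bones. Only sham replicate 5 reached the DMM wild-type range, and the log2 difference was 1.48 (SE 0.44; limma adjusted p = 0.331). Knockout values were 49.2, 52.2, 141, 39.5 and 63.4 FPKM, with replicate 3 alone above the sham range. The Col10a1 gene model overlaps that of Nt5dc1. Col8a1, a network chain of vessel walls and cornea, was 3.06, 2.90, 2.21, 2.38 and 2.95 FPKM in sham and 5.40, 4.34, 4.10, 4.15 and 2.95 FPKM in DMM wild-type bones. DMM wild-type replicate 5 lay inside the sham range, and the log2 difference was 0.48 (SE 0.13; limma adjusted p = 0.268). All 5 knockout libraries, at 5.06, 3.54, 5.03, 3.38 and 4.52 FPKM, were above all sham libraries. Its partner Col8a2 had means of 1.08 ± 0.641 and 2.89 ± 1.28 FPKM in sham and DMM wild-type, a log2 difference of 0.89 (SE 0.30).

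Col15a1 (ENSMUSG00000028339), a multiplexin of vessel and muscle basement membranes, was 2.14, 3.14, 1.80, 1.24 and 3.33 FPKM in sham and 8.32, 11.8, 5.90, 4.60 and 6.999 FPKM in DMM wild-type bones. The groups were fully separate, with a log2 difference of 1.34 (SE 0.29; limma adjusted p = 0.216). Knockout libraries had 3.06, 2.80, 9.34, 3.22 and 5.20 FPKM, of which 3 lay in the sham range. Col18a1, the multiplexin whose end fragment is endostatin, was 2.03, 1.74, 1.18, 0.852 and 2.54 FPKM in sham and 3.85, 3.81, 2.89, 3.69 and 2.94 FPKM in DMM wild-type bones. These groups did not overlap either, and the log2 difference was 0.76 (SE 0.22; limma adjusted p = 0.287). In the knockout Col18a1 was 2.46, 1.62, 5.66, 2.48 and 3.33 FPKM. Col13a1, a transmembrane collagen of cell adhesion sites, was 3.07, 4.55, 3.15, 2.74 and 4.15 FPKM in sham and 4.17, 3.81, 3.79, 5.10 and 4.60 FPKM in DMM wild-type bones. Those values overlapped, with a log2 difference of 0.23 (SE 0.16; limma adjusted p = 0.917).

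**Figure D3:**
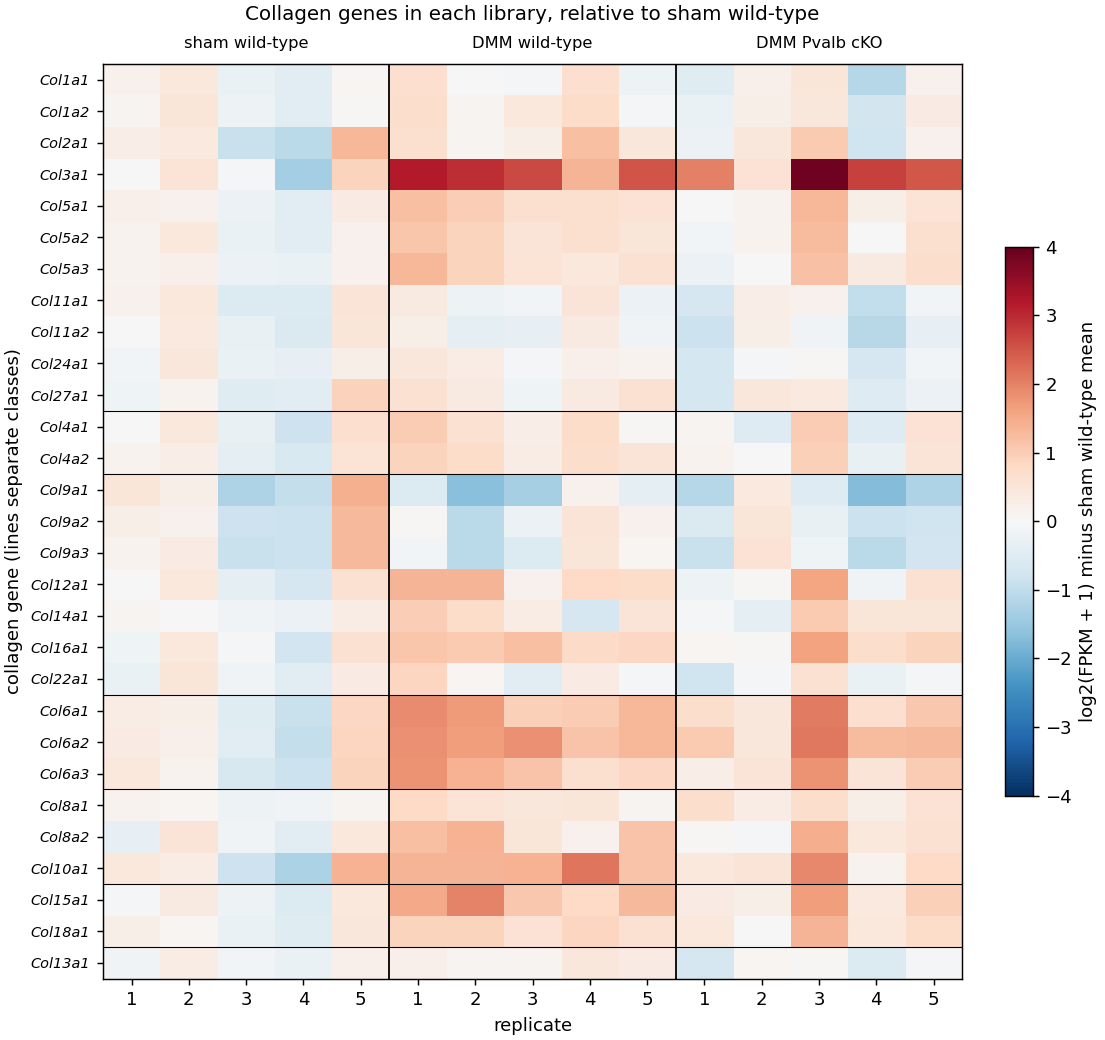
Log2(FPKM + 1) of the 29 collagen genes in each of 15 libraries minus the mean of the sham wild-type group, with lines between collagen classes and red for higher values. The Col3a1 row and the collagen VI rows are red across DMM wild-type, sham replicates 3 and 4 are blue in all 29 genes, and knockout replicate 3 is the most strongly red knockout column.

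The libraries of a group differed in the family as a whole. Sham replicates 3 and 4 were below the sham mean in 29 of 29 members, and sham replicate 4 was the lowest of all 15 libraries for 16 members. Sham replicate 5 was above the sham mean in 29 members and highest of all libraries for 7. Knockout replicate 3 was the highest of all for 11 members, whereas knockout replicates 4 and 1 were the lowest for 6 and 4. DMM wild-type replicate 1 was highest for 6.

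Marker genes of other tissues were examined in the same libraries, and none was called between DMM wild-type and sham in the test described above. Fast skeletal muscle markers were lower in 20 of 20, with a median log2 difference of -0.81. Of them, 0 were at an unadjusted p under 0.05, against 1.43% of all genes lower at that p. The summed level of the muscle markers was 128 to 4789 FPKM in sham, 274 to 2638 in DMM wild-type and 527 to 3223 in knockout libraries. None of them was at 0 throughout. Fibroblast and synovium markers were higher in 10 of 11, with a median of 0.74 and 6 at an unadjusted p under 0.05, against 5.5% of all genes. They summed to 92.0 to 211 FPKM in sham, 222 to 417 in DMM wild-type and 167 to 539 in knockout libraries. Tendon and ligament markers were higher in 4 of 4 that passed the filter, with a median of 1.09 and 3 at that p. These markers summed to 15.1 to 81.5, 84.4 to 191 and 45.9 to 205 FPKM in the same order of groups. Endothelial and pericyte markers were higher in 9 of 9 (median 0.31), with 4 at that p. Osteoblast and osteocyte markers were higher in 8 of 10 (median 0.37), with 2 at that p, and chondrocyte markers in 7 of 9 (median 0.29), with 1. Erythroid and neutrophil markers were higher in 3 of 9 each, with 0 at that p. The part of the fibroblast, tendon, and endothelial and pericyte markers in the collagen differences was not tested.

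With the mean muscle marker level as a covariate, 271 genes (1.98% of all) were called higher and 12 (0.0879%) lower in DMM wild-type than in sham bones, and 10 collagen genes were among those called higher. These were Col6a1, Col18a1, Col6a2, Col3a1, Col5a1, Col15a1, Col10a1, Col16a1, Col6a3 and Col8a1. In that fit Col3a1 rose by 2.92 log2 units (limma adjusted p = 0.00329) and Col6a2 by 1.78 (limma adjusted p = 0.00329). Over all alternatives tried for each gene, limma adjusted p ran from 0.00329 to 0.543 for Col3a1 and from 0.00329 to 0.506 for Col6a2. The count of collagen genes rests on single libraries. It was 4 without sham replicate 4, and 5 without sham replicates 2 or 3 or DMM wild-type replicates 1 or 2. It was 6 without DMM wild-type replicate 5, and between 8 and 13 without any other library. The covariate fit of all libraries also called 6 of 11 fibroblast and synovium and 2 of 4 tendon and ligament markers higher. So were 3 of 9 endothelial and pericyte markers and 1 of 9 chondrocyte markers. Of the osteoblast and osteocyte, erythroid and neutrophil markers, 0 were called.

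The genes that process collagen were described from lists of the pathway. Of the genes for chain modification and folding, 13 of 20 were higher in DMM wild-type than in sham bones at an unadjusted p under 0.05, against 5.5% of all genes, and 0 were lower, with a median of 0.46 log2 units. P4ha2, a prolyl 4-hydroxylase subunit, was 2.42 ± 0.971 and 4.58 ± 0.820 FPKM (SD, n = 5 libraries) in those groups, and P3h1, a prolyl 3-hydroxylase, was 7.83 ± 1.83 and 11.5 ± 2.04 FPKM. Of the propeptide cleavage genes, 2 of the 5 tested were higher at that p. Pcolce, an enhancer of procollagen C-proteinase, was 14.6 ± 5.04 and 32.1 ± 9.83 FPKM, a log2 difference of 1.11 (SE 0.25; limma adjusted p = 0.216), and Adamts2, the procollagen N-proteinase, had 0.44 (SE 0.15). Of the cross-linking genes, 4 of 5 were higher at that p, among them Loxl2 at 1.09 (SE 0.27) and Loxl1 at 0.55 (SE 0.16). These lysyl oxidases form the aldehydes from which collagen cross-links arise. Of the collagen receptors, 1 of 10 was higher at that p, a share near the 5.5% of all genes. It was Mrc2, which takes up collagen for degradation, at 0.52 (SE 0.19). Ddr2, a collagen-binding kinase, had 0.35 (SE 0.19).

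Of the collagen-degrading enzymes, 5 of 7 were higher at an unadjusted p under 0.05, against 5.5% of all genes. Mmp2, a gelatinase, was 20.04, 25.9, 16.4, 12.0 and 26.5 FPKM in sham and 76.2, 53.0, 54.8, 40.8 and 46.0 FPKM in DMM wild-type bones. Its groups did not overlap, and the log2 difference was 1.40 (SE 0.28; limma adjusted p = 0.209). Mmp14, the membrane-bound collagenase that activates Mmp2, had 0.67 (SE 0.15; limma adjusted p = 0.216). No gene of these 5 lists passed the adjusted threshold, and with the muscle covariate 8, 1, 2, 0 and 2 of them were called higher in the order given, against 1.98% of all genes.

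In the knockout, compared with wild-type bones after DMM, most collagen genes had lower values, by amounts within the spread between libraries. No member was called, against 0.00732% of all genes called higher (1 gene) and 0% lower, and the median log2 difference was -0.37 over the members and -0.017 over all genes. At an unadjusted p under 0.05, 3 of 29 members were lower, against 2.15% of all genes, and 0 higher, against 1.11%. These 3 were Col13a1, Col24a1 and Col15a1. The difference was below 0 in 28 of 29 members. It was above 0 in 1 member, against 45.1% of all genes above 0. Col8a1 was the exception at 0.036 (SE 0.13).

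Col13a1 was 1.82, 3.77, 3.68, 2.05 and 3.35 FPKM in knockout libraries, each below the lowest DMM wild-type value of 3.79, which 0.249% of all genes shared. Its gap was narrow, and the log2 difference was -0.46 (SE 0.16; limma adjusted p = 0.935). Knockout replicates 1 and 4, the lowest here, and DMM wild-type replicate 3, at 3.79, were the 3 libraries that stood apart on the first principal component. Without them the log2 difference of Col13a1 was -0.23, and its unadjusted limma p was not under 0.05. Col24a1 was 2.19 to 3.51 FPKM in DMM wild-type libraries (median 2.79) and 1.04 to 2.39 in knockout libraries (median 2.09), a log2 difference of -0.51 (SE 0.18; limma adjusted p = 0.935). Col15a1 had -0.63 (SE 0.29; limma adjusted p = 0.935). Between genotypes after DMM, the log2 difference was -0.18 for Col3a1 (95% interval -1.35 to 0.98), -0.31 for Col6a2 (-1.005 to 0.38) and -0.37 for Col6a1 (-1.11 to 0.36). Col1a1 had -0.38 (-1.002 to 0.24) and Col10a1 -0.71 (-1.66 to 0.23).

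The shift of the family between genotypes depended on single libraries. Without knockout replicate 3, 11 members were lower at an unadjusted p under 0.05, against 3.93% of all genes, and the median was -0.55. Without knockout replicate 4 it was -0.24. The median over all genes lay between -0.022 and -0.0016 in these fits, the fit with the muscle covariate and the fit without 3 libraries. Without the 3 libraries that stood apart on the first principal component, 0 members were lower at an unadjusted p under 0.05, against 2.56% of all genes, 24 of 29 were below 0 and the median was -0.13. Muscle markers were higher in the knockout in 20 of 20 (median 0.69), with 0 at an unadjusted p under 0.05, against 1.11% of all genes. Osteoblast and osteocyte markers were lower in 10 of 10 (median -0.37), with 2 at that p, against 2.15% of all genes. With the muscle covariate 9 members were lower at an unadjusted p under 0.05, against 3.97% of all genes, and 0 were called. The part of the osteoblast markers in the collagen values was not tested. Of the pathway lists, 1 gene each of the modification, propeptide cleavage, cross-linking and degradation lists was lower at an unadjusted p under 0.05, and 0 receptors were, against 2.15% of all genes.

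Knockout bones after DMM were also compared with sham wild-type bones. This comparison shares libraries with both others, and it mixes surgery and genotype. No member was called, against 0.0293% of all genes called higher (4 genes) and 0% lower. At an unadjusted p under 0.05, 8 of 29 members were higher (Col6a1, Col18a1, Col6a2, Col3a1, Col15a1, Col16a1, Col6a3 and Col8a1), against 5.84% of all genes, and 0 lower, against 4.64%. In 1 member, Col8a1, all knockout libraries exceeded all sham libraries, against 1.2% of all genes. The difference was above 0 in 18 of 29 members, against 47.9% of all genes, and below 0 in 11, with a median of 0.32, or 0.090 without knockout replicate 3. The count of 8 became 5 without knockout replicate 3 (7.34% of all genes) or knockout replicate 5 (6.17%), and 4, with 1 other member lower, without sham replicate 4 (4.22% higher). It was 5, with 1 other member lower, without sham replicate 3. Without the 3 libraries that stood apart it was 11, against 4.47% of all genes, and the median was 0.53.

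Col3a1 had a log2 difference of 2.34 (SE 0.54; limma adjusted p = 0.292) in knockout against sham, beside 2.53 in DMM wild-type against sham. For Col6a2 the values were 1.24 (SE 0.32) and 1.55, for Col6a1 1.00 (SE 0.34) and 1.37, for Col15a1 0.71 (SE 0.29) and 1.34, and for Col10a1 0.76 (SE 0.44) and 1.48. Col8a1 had 0.51 (SE 0.13; limma adjusted p = 0.375), beside 0.48. With the muscle covariate, Col3a1 rose by 2.42 log2 units (limma adjusted p = 0.0354) and Col6a2 by 1.28 (limma adjusted p = 0.0484), in ranges over alternatives of 0.0354 to 0.635 and 0.0484 to 0.686, when 0.132% of all genes were called higher and 0.0293% lower. These 2 calls fell to 0 or 1 when any library other than knockout replicate 2 was left out. Fibroblast and synovium markers were higher in 10 of 11 (median 0.73) and tendon and ligament markers in 4 of 4 (median 1.05), and their part in these values was not tested. Of the pathway lists, 6, 1, 2, 0 and 3 genes of modification, propeptide cleavage, cross-linking, receptors and degradation were higher at an unadjusted p under 0.05, of 20, 5, 5, 10 and 7 tested and against 5.84% of all genes.

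Ratios between chains within a library do not depend on its scaling. The 11 ratios were chosen with earlier results of these data known, which the adjustment does not cover. They gave 33 tests over 3 comparisons by exact two-sided permutation, and none had an adjusted p under 0.05. The smallest p that 252 arrangements can give is 0.00794, and a ratio at that exact permutation p had an adjusted p of 0.105. The threshold could thus be passed only if several tests reached the smallest p together, and not passing it does not show equal ratios. Among chains that form one molecule, Col1a1 to Col1a2 was 1.40 to 2.07 over all libraries, Col5a1 to Col5a2 was 0.633 to 0.906 and Col6a1 to Col6a2 was 1.09 to 2.25. Collagen I contains more of the first chain than of the second. Col1a1 to Col1a2 was 1.95 ± 0.0827 in sham and 1.76 ± 0.210 in DMM wild-type libraries (exact permutation p = 0.0476, adjusted p = 0.175, n = 5 per group). DMM wild-type replicate 3 had the lowest value, 1.40. The log2 difference was -0.16, and it ran from -0.19 to -0.076 with 1 library left out. Col6a1 to Col6a2 was 2.08 ± 0.106 in sham, 1.81 ± 0.416 in DMM wild-type and 1.71 ± 0.276 in knockout libraries. Its log2 difference between knockout and sham was -0.29 (exact permutation p = 0.0159, adjusted p = 0.105), and that between DMM wild-type and sham was -0.23 (exact permutation p = 0.183). The lowest values were 1.09 in DMM wild-type replicate 3 and 1.34 and 1.57 in knockout replicates 4 and 1, the 3 libraries that stood apart. The other DMM wild-type libraries had 1.84 to 2.10, and sham libraries had 1.99 to 2.25. The ratio was not tested without those 3 libraries together.

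The ratio of Col10a1 to Col2a1, of hypertrophic to general cartilage collagen, was 0.458, 0.378, 0.424, 0.352 and 0.435 in sham and 0.677, 0.981, 0.912, 0.796 and 0.660 in DMM wild-type libraries. The groups did not overlap, and sham libraries that differed widely in both genes had similar ratios. The log2 difference was 0.96 (exact permutation p = 0.00794, the smallest that 252 arrangements can give; adjusted p = 0.105). Knockout libraries had 0.663, 0.427, 0.768, 0.778 and 0.639, with replicate 2 in the sham range. The ratio of Col9a1 to Col2a1 was 0.143, 0.108, 0.0839, 0.121 and 0.136 in sham and 0.0497, 0.0275, 0.0338, 0.0584 and 0.0633 in DMM wild-type libraries. It was lower in all DMM wild-type libraries, with a log2 difference of -1.39 (exact permutation p = 0.00794, adjusted p = 0.105). Knockout libraries had 0.0566, 0.115, 0.0386, 0.0479 and 0.0394, and again replicate 2 lay in the sham range.

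Col3a1 to Col1a1 was 0.0151, 0.0191, 0.0195, 0.00810 and 0.0313 in sham and 0.104, 0.138, 0.119, 0.0288 and 0.119 in DMM wild-type libraries. Only DMM wild-type replicate 4 reached the sham range, and the log2 difference was 2.40 (exact permutation p = 0.0159, adjusted p = 0.105). Knockout libraries had 0.103, 0.0231, 0.196, 0.270 and 0.0897, a log2 difference from sham of 2.59 (exact permutation p = 0.0159, adjusted p = 0.105). Between knockout and DMM wild-type libraries no ratio had an unadjusted p under 0.05. Leaving out knockout replicate 2 brought 6 of the 33 tests under an adjusted p of 0.05, and leaving out any other library brought 0. Among the 6 were Col10a1 to Col2a1 and Col9a1 to Col2a1 between DMM wild-type and sham, which do not hold that library. Their exact permutation p was unchanged at 0.00794, and their adjusted p moved only because it is computed over all 33 tests.

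**Figure D4:**
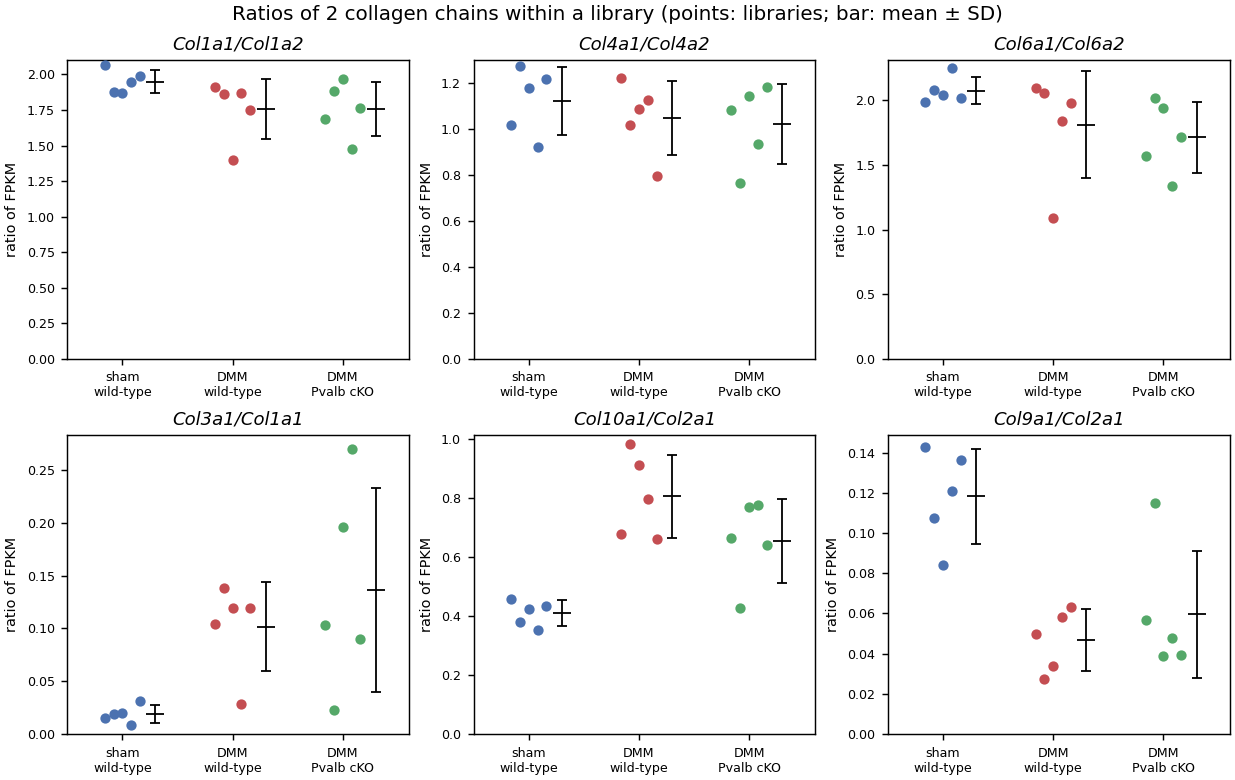
Ratio of FPKM of a pair of collagen chains within each library (points, linear axis from 0) in the 3 groups of 5, with mean and SD. Col1a1/Col1a2, Col4a1/Col4a2 and Col6a1/Col6a2 overlap between groups, while Col10a1/Col2a1 lies between 0.660 and 0.981 in DMM wild-type against 0.352 to 0.458 in sham, and Col9a1/Col2a1 lies lower.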

How the data were processed

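Libraries were poly(A) RNA made with dUTP, from frozen ground bone, per the labels' protocols. Per the submitters' processing notes, the tools included STAR 2.7.10a and featureCounts 2.0.3, with build GRCm39. The authors deposited 1 table of FPKM; the tool that made them and the strand setting are not given in the sources used here. Of the table's value columns, 0 were unmatched, and 0 of 105 pairs of libraries were identical. Symbols came from a GENCODE name table, matched for 55154 IDs. One limma 3.58.1 fit (R 4.3.3) of log2(FPKM + 1) covered 13653 genes, 15 libraries and 3 group means, with Benjamini-Hochberg adjustment over all genes, and was tested on simulated data. Chain ratios used exact permutation (Python 3.11.15, numpy 2.4.6). Depth rests on the spacing of values between 0.01 and 0.2 FPKM, where only 1.96 to 3.10% of IDs fell in the peak used, so whole reads were not recovered and no count test was run. Members, classes, lists and ratios were chosen with earlier results of these data known. Values of every library are given for the 2 members of each class with the smallest unadjusted p in DMM wild-type against sham and for the highest member, and up to 2 genes per pathway list are named. Col2a1, Col9a1, Col24a1 and the remaining members are given by range or mean. Alternatives were another pseudocount (0.1), median-of-ratios scaling, no filter, a minimum of 5 FPKM, a replicate block, only the libraries compared, a muscle covariate and each library left out. Leaving out 3 libraries together, and the muscle covariate with each library left out, were added after seeing the data.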

Additional observations from a re-analysis of the deposited data

Results flagged for a closer look

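Of 123 groups of 5 values examined for collagen levels and chain ratios, 6 held a library separated from the other 4 by Dixon's criterion at the 95% level, and chance alone would give about 6.15 (1 in 20). Col6a1 was 101 FPKM in DMM Pvalb cKO replicate 3 and 32.3 to 50.4 in the rest of the group. Col10a1 was 164 FPKM in DMM wild-type replicate 4 against 80.5 to 95.4, and 141 FPKM in DMM Pvalb cKO replicate 3 against 39.5 to 63.4. The ratio of Col6a1 to Col6a2 was 1.09 in DMM wild-type replicate 3, where the rest of the group had 1.84 to 2.10. In sham replicate 5 the ratio of Col2a1 to Col1a1 was 0.249, and the other sham libraries had 0.0651 to 0.111. The ratio of Col9a1 to Col2a1 was 0.115 in DMM Pvalb cKO replicate 2 against 0.0386 to 0.0566.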

How the results depend on the processing

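Of 2127 values of single genes and ratios under alternatives, 2056 kept their direction and their side of the threshold. Of the rest, 18 passed it and 53 reversed, 38 of the reversed values with 1 library left out. No collagen gene or ratio passed in the main tests, so a value could only stay on that side or newly pass. For DMM wild-type against sham, all genes called were 2 with no filter and 283 with the muscle covariate, which called 10 collagen genes; leaving out 1 library gave 0 to 2 genes, and 4 to 13 collagen genes with the covariate. For knockout against DMM wild-type, genes called were 2 with no filter (1 to 2 without 1 library), and collagen genes at unadjusted p under 0.05 were 1 with the filter of 5 FPKM, 9 with the muscle covariate, 0 without the 3 libraries and 2 to 11 without 1 library. For knockout against sham, genes called were 7 with no filter, 7 with median-of-ratios scaling, 1 with the replicate block, 22 with the muscle covariate, 7 without the 3 libraries and 2 to 8 without 1 library. Its collagen genes called were 2 with the muscle covariate (0 to 2 without 1 library), and 5 to 11 were at unadjusted p under 0.05. Chain ratios passing were 0 to 6. Reversed in knockout against sham were Col1a2 (0.036 with scaling, 0.018 with the muscle covariate, 0.34 without the 3 libraries) and, without the 3 libraries, Col1a1 (0.28), Col11a1 (0.11), Col27a1 (0.21), Col13a1 (0.037) and Col22a1 (0.17). In knockout against DMM wild-type they were Col8a1 (-0.0052 with the muscle covariate) and, without the 3 libraries, Col14a1 (0.0025), Col9a1 (0.16), Col9a3 (0.033) and Col11a1 (0.011). In DMM wild-type against sham it was Col11a2 (0.025 with the muscle covariate, 0.024 without the 3 libraries). With 1 library left out, DMM wild-type against sham ran from -0.081 to 0.19 for Col11a1, -0.19 to 0.074 for Col11a2, -0.025 to 0.30 for Col22a1, -0.33 to 0.21 for Col9a2 and -0.46 to 0.090 for Col9a3. Knockout against DMM wild-type ran from -0.31 to 0.12 for Col14a1, -0.57 to 0.25 for Col3a1, -0.058 to 0.12 for Col8a1 and -0.40 to 0.14 for Col9a1. Knockout against sham ran from -0.32 to 0.090 for Col1a1, -0.12 to 0.18 for Col1a2, -0.30 to 0.058 for Col22a1, -0.26 to 0.11 for Col27a1, -0.14 to 0.46 for Col2a1 and -0.079 to 0.30 for Col4a1. The cause of these moves was not tested. The replicate block changed no count of collagen genes, and same-numbered libraries correlated between -0.46 and 0.40 in their deviations. Libraries of different numbers were not correlated for comparison, so whether the numbers pair the samples cannot be told from these values. Absolute depth was unknown, and p-values measure the spread between these libraries.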
